A study of Mus musculus with 3 samples.

Results

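Aquaporins are membrane channel proteins that let water cross the lipid bilayer, and a subgroup, the aquaglyceroporins, also passes glycerol and other small solutes. RNA of 9 aquaporin genes, namely Aqp1, Aqp2, Aqp3, Aqp4, Aqp5, Aqp7, Aqp8, Aqp9 and Aqp11, was followed on 3 Agilent 1-colour (Cy3) arrays of mouse embryonic stem (ES) cells. Every probe whose gene name, or current symbol found through its accession or an older synonym, was 1 of these 9 was taken. That gave 14 of 41174 probes and 9 of 27669 gene names on the arrays. The genes were chosen with the result of this very comparison known, so their values are given as a description and without a test.

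2 samples carried a Tet1 knockout (KO 4 and KO 22) and 1 was the Tet1 wild type. Tet1 encodes a dioxygenase that oxidises 5-methylcytosine in DNA. By the labels all 3 samples were V6.5 ES cells of a mixed 129 and C57BL6 background. All were grown on irradiated feeder cells in medium with the cytokine LIF, and preplated before RNA extraction, a step that lets feeder cells settle out. The design text speaks of knockout and wild type mice. Whether the knockout samples are separate clones or separate cultures of 1 clone is not given, and neither are the age and the deleted exons. The spread between the knockout arrays, and every p-value below, therefore measures only these samples and may be technical.

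Water moves through an aquaporin down an osmotic gradient that ion transport builds up. In the early mouse embryo the trophectoderm pumps sodium across its epithelium, and water follows into the blastocyst cavity through aquaporins. Aqp8 is best known from liver, pancreas, colon and testis, and it can also carry hydrogen peroxide and ammonia.

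The arrays were of like brightness. Of 43379 non-control spots, the scanner software called 62.2% to 62.8% well above background on each array, and none was saturated. Intensities below are scaled so that each array has the same 75th percentile, and the lowest spots well above background then stood no higher than 10.4. Tet1 itself stood at 197 on KO 4, 201 on KO 22 and 765 on wild type, 3.85-fold lower in the knockouts. The place of its probe relative to the deletion is not given, so this may check nothing. The median gene was close to 0 in the comparison: over 17710 genes tested it lay at -0.04 (log2) on KO 4 and at -0.02 on KO 22. The 3 pluripotency factors Pou5f1, Sox2 and Nanog were well above background on all 3 arrays, Pou5f1 at 19557, 19462 and 26936.

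Aqp8 was the aquaporin that separated the genotypes most. The KO 4 spot had a scaled intensity of 45.9, the KO 22 spot 48.4 and the wild type spot 599.9. The scanner software gave these single spots errors of 5.11, 5.36 and 60.0. Both knockout arrays were low and wild type was high. That the groups did not overlap is common with 1 wild type array. Of the genes well above background on all 3 arrays, 46.4% were lower and 37.9% higher on both knockout arrays. The difference from wild type was -3.71 (log2) on KO 4 and -3.63 on KO 22, with a mean of -3.67 ± 0.05 (SD, n = 2 knockout arrays against 1 wild type array). In folds, Aqp8 was 13.1-fold lower on KO 4 and 12.4-fold lower on KO 22. With 1 wild type array the spread among wild type samples is not known.

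The knockout values of Aqp8 were low but measured. The spot was well above background on all 3 arrays, at 4.41 times the lowest such spot on KO 4 and 4.78 times on KO 22. Before background subtraction its mean pixel intensity was 83.5, 80.8 and 618, against a local background of 18, 20 and 18.5. KO 4 and KO 22 differed by 0.08 (log2), and 57.6% of the 16401 genes well above background on all 3 arrays were at least as far apart. Among these genes Aqp8 had the third lowest mean difference. In bulk RNA, fewer cells that express the gene and less of it per cell cannot be told apart.

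The Aqp8 result rests on 1 probe, at chr7:119570588-119570647 on build mm7 as the files give it. Neighbouring spots on the glass were also looked at, 9 of them within 2 rows and 2 columns and well above background on at least 1 array. On both knockout arrays 0 of the 9 were at least 2-fold lower and 1 was at least 2-fold higher. Of all genes tested, 1.56% were lower and 1.45% higher by as much, so counts over 9 spots say little. The mean differences of the 9 spots ran from -0.19 to 1.21 (log2).

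**Figure D1:**
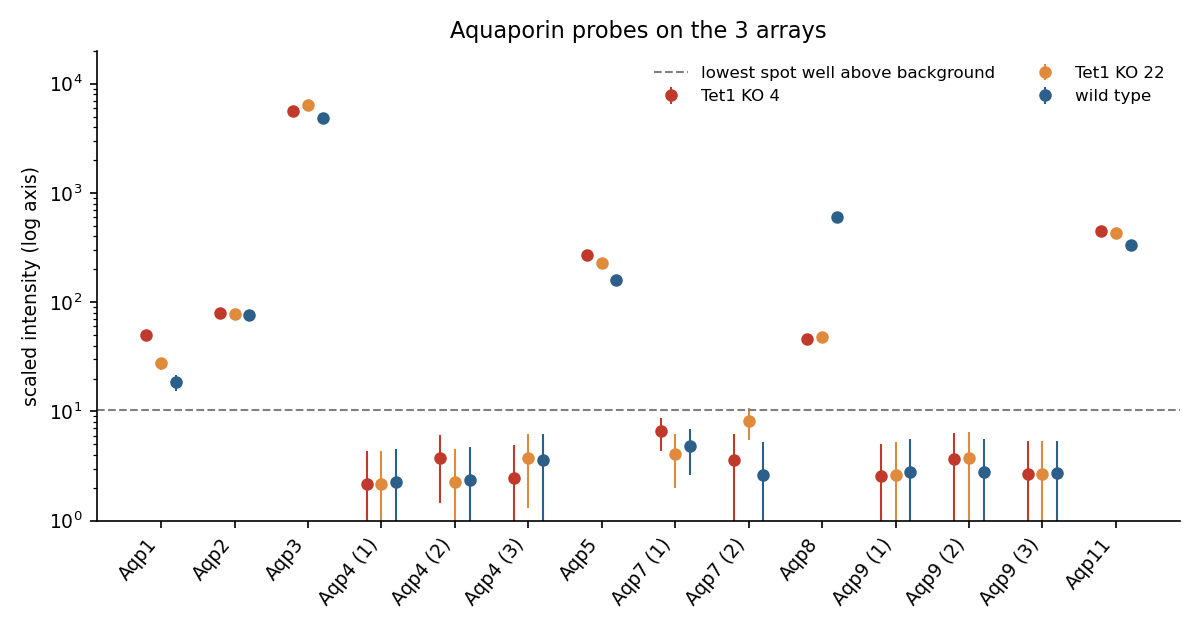
Scaled intensity (log axis) of each of the 14 aquaporin probes on KO 4, KO 22 and wild type; bars are the scanner software's error of that spot, the axis cuts off bars that reach below 1, and the dashed line is the lowest spot well above background. Aqp8 is the only probe on which both knockout points, 45.9 and 48.4, lie far below the wild type point at 599.9, and the 8 probes of Aqp4, Aqp7 and Aqp9 lie under the dashed line.

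The size of the Aqp8 difference depended on how background was handled, and its direction did not. Over 13 alternative settings the mean difference ran from -3.71 to -2.69, so that 0 had the other sign. It was -3.43 in the submitters' own values and -3.03 with no background subtraction, a setting chosen after seeing the data. The smallest value, 6.43-fold lower, came from the normexp background model without the 8 spots on the arrays that were dimmer than their local background. An added offset of 50 in that model lifts dim spots and shrinks folds.

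**Figure D2:**
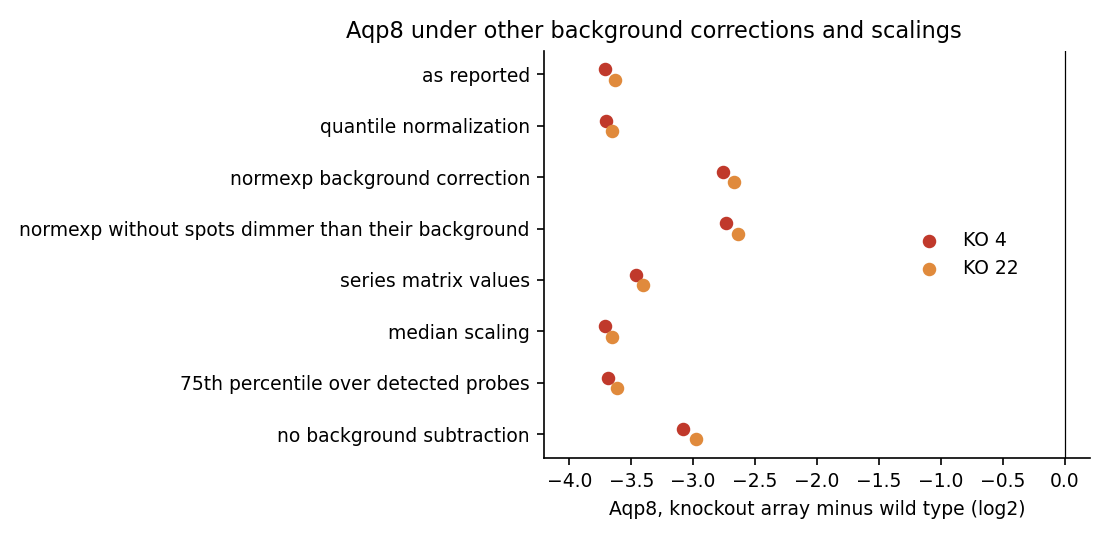
Aqp8 difference from wild type (log2) on KO 4 and KO 22 under the reported setting and 7 other scalings or background corrections. Both points stay left of 0 on every line, between -3.71 and -2.64.

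Aqp8 lay apart from its genome neighbours on chromosome 7. Arhgap17, a GTPase-activating protein gene, was at 1155, 1184 and 1166 on KO 4, KO 22 and wild type, a difference of 0.00 ± 0.09 (log2, SE, limma adjusted p = 0.985). Lcmt1, which encodes the methyltransferase of the phosphatase PP2A, was at 6076, 6024 and 6601, a difference of -0.13 ± 0.09 (limma adjusted p = 0.419). Zkscan2, a zinc finger gene on the other side, was at 69.9, 70.7 and 95.5, a difference of -0.44 ± 0.09 (limma adjusted p = 0.121). None of these 3 neighbours passed the test at 0.05, which 0.322% of all genes tested passed as lower and 0.0339% as higher. The next gene, Hs3st4, was not found on the array by name. Of 9 tested neighbours of the other members, limma called 0. On both knockout arrays 0 of the 9 were lower by 2-fold or more and 1 was higher, beside 1.56% and 1.45% of all genes tested. With shares this small, counts over so few genes say little. Tet1 itself, 3.85-fold lower in the knockouts, did not pass at 0.05 either, so a gene that did not pass may still differ.

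The 250 bases before the annotated start of Aqp8 are shown beside those of Aqp5 and Aqp3. TET enzymes act on methylated CpG, and these starts run from few to many CpG. Sequences are from RefSeq on build GRCm38.p6, read 5′ to 3′ on the gene's strand, with CpG in capitals. They are chr7:123462044-123462293 (plus strand) for Aqp8, chr15:99590778-99591027 (plus) for Aqp5 and chr4:41098184-41098433 (minus) for Aqp3.
Aqp8: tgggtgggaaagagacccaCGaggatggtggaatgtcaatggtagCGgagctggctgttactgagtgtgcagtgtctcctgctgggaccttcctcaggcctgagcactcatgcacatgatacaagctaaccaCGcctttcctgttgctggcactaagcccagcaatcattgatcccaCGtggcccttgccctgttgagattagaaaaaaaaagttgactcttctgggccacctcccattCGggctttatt
Aqp5: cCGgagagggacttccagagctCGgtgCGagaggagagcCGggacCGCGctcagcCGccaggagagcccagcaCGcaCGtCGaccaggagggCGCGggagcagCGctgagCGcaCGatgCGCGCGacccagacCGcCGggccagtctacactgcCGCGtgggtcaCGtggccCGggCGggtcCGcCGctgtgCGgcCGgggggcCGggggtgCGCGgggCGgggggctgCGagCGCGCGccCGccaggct
Aqp3: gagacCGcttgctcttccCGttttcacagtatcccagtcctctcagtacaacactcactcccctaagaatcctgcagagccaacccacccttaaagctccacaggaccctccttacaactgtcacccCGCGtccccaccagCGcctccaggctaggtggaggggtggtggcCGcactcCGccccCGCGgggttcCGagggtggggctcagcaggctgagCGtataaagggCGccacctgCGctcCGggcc

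The Aqp8 window held 5 CpG and was 52.4% G or C, beside medians of 6 CpG and 52.4% over 32841 mouse promoters of the same length. 55.6% of all promoters had at least as many CpG. The Aqp5 window held 38 CpG, a number that 1.88% of promoters reached, and the Aqp3 window held 14. Windows of 8 member genes were found, 10 in all. Aqp11 had 23 CpG, Aqp2 had 8, Aqp1 had 5 like Aqp8, and the 4 windows of Aqp7 and Aqp9 had 0 to 3. The 6 members with signal thus had 5 to 38 CpG, beside 0 to 3 in Aqp7 and Aqp9, over few genes. Aqp4 was not used here. Within the group with signal, Aqp8 and Aqp1 had the same CpG count and, except under the normexp model as planned, differences of opposite sign. No DNA methylation was measured here.

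**Figure D3:**
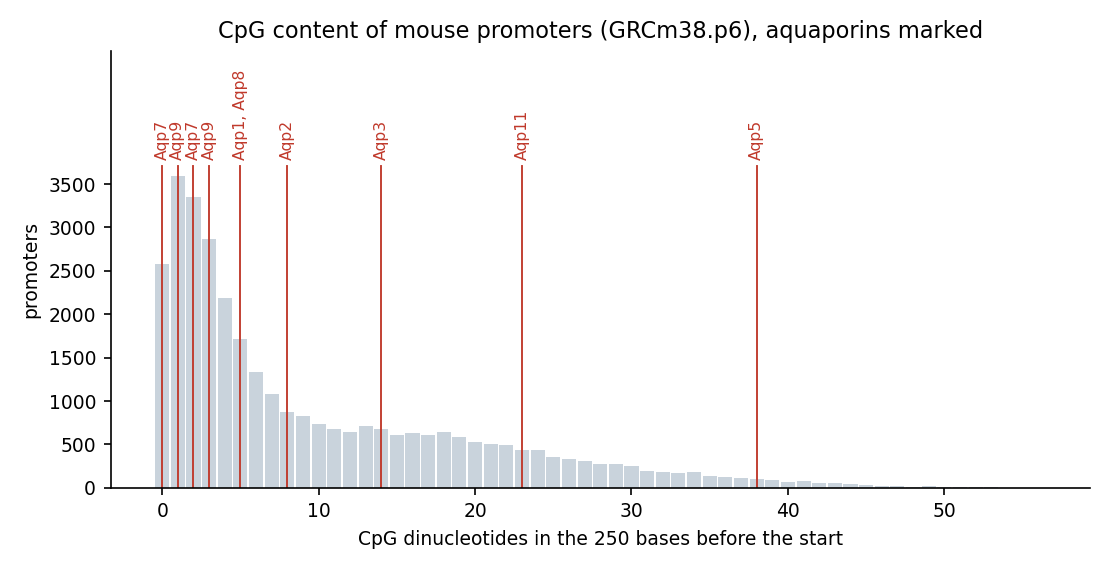
Number of mouse promoters (vertical axis) by the count of CpG in the 250 bases before the start (horizontal axis), with red lines at the windows of 8 aquaporins. Aqp8 and Aqp1 stand at 5, near the median of 6, and Aqp5 stands at 38 in the upper tail.

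The letters CACGTG, which read the same on both strands, were in the windows of Aqp8, Aqp5 and Aqp2 and in 6.02% of all promoters. This motif was looked for after the sequences had been seen. TATAAA, searched on both strands, was in the Aqp3 window and in 12.4% of all promoters. A match describes the letters only.

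Aqp1, the water channel of red blood cells, kidney and endothelium, was higher on both knockout arrays, but unequally. It stood at 50.2 ± 5.53 on KO 4, 27.5 ± 3.58 on KO 22 and 18.4 ± 3.03 on wild type (± scanner error of 1 spot). KO 4 was high, KO 22 was in between and wild type was lowest. The differences were 1.44 (log2) on KO 4 and 0.58 on KO 22, with a mean of 1.01 ± 0.61 (SD, n = 2). KO 4 was thus 1.83-fold above KO 22, and only 65 of the 16401 genes (0.396%) had knockout arrays as far apart. The Aqp1 spot was dim, at 4.82, 2.71 and 1.78 times the lowest spot well above background on KO 4, KO 22 and wild type. The 16401 genes are of all brightness, so this share is not one among equally dim spots. The probe lies at chr6:55311856-55311915 (mm7). Under the normexp model as planned, which moved the median of all genes to -0.20, the mean difference of Aqp1 turned to -1.59. Without the 8 spots dimmer than their background it was 0.20, and with no background subtraction 0.40.

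Marker groups of cell types that can hold Aqp1 also differed among the arrays, in part in the order of Aqp1 and in part not. The fibroblast markers, all 10 of 10 well above background, summed to 15226 on KO 4, 12954 on KO 22 and 13686 on wild type. Their median difference was 0.85 (log2) on KO 4 and -0.06 on KO 22. Of the 10, 4 were higher and 1 lower on both knockout arrays, beside 37.9% and 46.4% of genes well above background on all 3 arrays. Col1a1, a collagen of fibroblasts, was at 708, 410 and 339 on KO 4, KO 22 and wild type. The 4 markers higher on both, namely Col1a1, Col1a2, Twist2 and Dcn, all had this order, which is also that of Aqp1. Col3a1 was at 341, 147 and 156, and Thy1 at 2174, 1955 and 2401. Most of the sum came from Acta2, at 9600, 8950 and 9401. KO 4 was the array with the highest Aqp1 and the highest fibroblast sum. The sum was lowest on KO 22, where Aqp1 was above wild type. Of 6 endothelial markers 2 were well above background, Pecam1 at 248, 296 and 304 and Tek at 41.6, 39.3 and 78.0. They summed to 290 on KO 4, 336 on KO 22 and 382 on wild type, mostly from Pecam1. Cdh5, Kdr, Tie1 and Emcn were not well above background on any array. The part of feeder or other cells in the Aqp1 values was not tested.

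Aqp5, the water channel of salivary, lacrimal and airway glands, was higher in both knockout samples. It stood at 268 ± 26.9 on KO 4, 228 ± 22.9 on KO 22 and 159 ± 16.1 on wild type. Both knockout spots lay above wild type by more than the scanner errors. The differences were 0.75 and 0.52 (log2), with a mean of 0.64 ± 0.17 (SD, n = 2), or 1.56-fold. The probe lies at chr15:99579945-99580003 (mm7). The mean difference turned to -0.37 under the normexp model as planned and was 0.48 without those 8 spots.

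Aqp11, an aquaporin of the endoplasmic reticulum membrane needed in kidney tubules, was also somewhat higher. It stood at 451 ± 45.2 on KO 4, 432 ± 43.3 on KO 22 and 336 ± 33.7 on wild type. The knockout spots were close together and above wild type by more than the scanner errors. The differences were 0.43 and 0.36 (log2), with a mean of 0.39 ± 0.04 (SD, n = 2), or 1.31-fold. The probe lies at chr7:93757914-93757973 (mm7). Over 13 alternatives its mean difference stayed between 0.01 and 0.43.

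Aqp3, an aquaglyceroporin of epithelia such as skin and kidney, was somewhat higher on both knockout arrays. It stood at 5565 ± 556 on KO 4, 6402 ± 640 on KO 22 and 4839 ± 484 on wild type. The order was KO 22, KO 4 and wild type, and the ranges of 1 scanner error around KO 4 and wild type overlapped. The differences were 0.20 and 0.40 (log2), with a mean of 0.30 ± 0.14 (SD, n = 2), or 1.23-fold. The probe lies at chr4:41231392-41231451 (mm7). Over 13 alternatives the mean difference stayed between 0.20 and 0.75.

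Aqp2, the vasopressin-regulated water channel of the kidney collecting duct, was nearly level. It stood at 79.4 ± 8.21 on KO 4, 78.4 ± 8.10 on KO 22 and 76.4 ± 7.92 on wild type. The 3 values lay within 1 scanner error of each other. The differences were 0.06 and 0.04 (log2), and their sign turned in 4 of 13 alternatives. The files place this probe at chr15:99567392-99568368 (mm7), which spans 977 bases. Aqp2, Aqp5 and the non-member Aqp6 are neighbours on chromosome 15, as Aqp7 and Aqp3 are on chromosome 4. In the pair Aqp2 and Aqp5, mean differences of 0.05 and 0.64 (log2) thus stood side by side.

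Aqp4, Aqp7 and Aqp9 gave no signal above background on any array. Aqp4 is the water channel of astrocyte endfeet, Aqp7 an aquaglyceroporin of fat cells, and Aqp9 an aquaglyceroporin of liver. Their 8 probes were not well above background on any of the 3 arrays, with scaled values of 2.16 to 6.58 on KO 4, 2.18 to 8.12 on KO 22 and 2.25 to 4.80 on wild type. The scanner software had put a surrogate in place of the measured value for 14 of these 24 spots. No fold is given for them. The 2 Aqp7 probes did not order the arrays alike. The first, at chr4:41172651-41172710 (mm7), was brightest on KO 4 at 6.58, and the second, at chr4:41172673-41172732, was brightest on KO 22 at 8.12. The 3 Aqp9 probes, at chr9:71145729-71145788, chr9:71146729-71157193 and chr9:71167045-71167104 (mm7), ran from 2.55 to 3.73 over all arrays. The 3 Aqp4 probes ran from 2.16 to 3.79.

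Counted together, 1 of the 6 members that passed the filter for testing (Aqp8) was at least 2-fold lower on both knockout arrays, as were 1.56% of all genes tested. 0 of these 6 were higher by 2-fold or more on both, beside 1.45% of all genes. All 6 were well above background on all 3 arrays, and 5 were higher on both knockout arrays, beside 37.9% of the genes so measured, and 1 was lower on both, beside 46.4%. Since the genes were picked from this comparison, nothing is read from these shares.

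**Figure D4:**
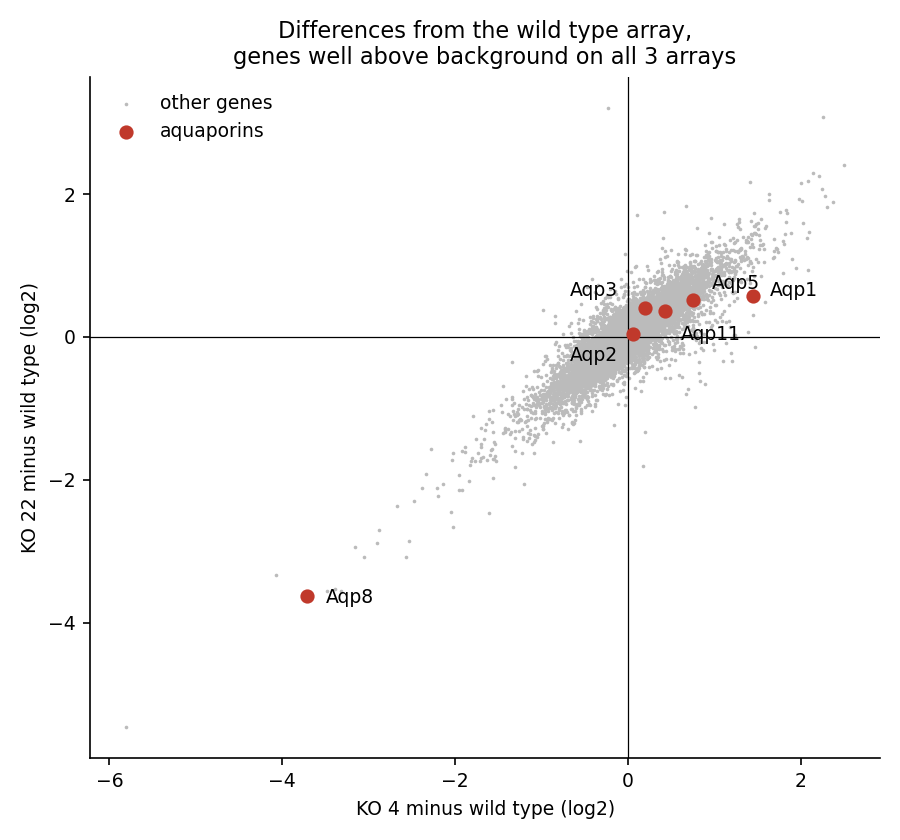
Difference from wild type (log2) on KO 4 (horizontal) and KO 22 (vertical) for the 16401 genes that all 3 arrays measured well above background, with the 6 aquaporins among them in red. Aqp8 lies far down at -3.71 and -3.63, Aqp1 lies to the right at 1.44 and 0.58, and the other 4 lie in the main cloud.

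The genes whose pair of differences was nearest to that of Aqp8 were sought by Euclidean distance over the KO 4 and KO 22 differences, among 13874 genes with a reference symbol. The 5 nearest were Plagl1, Cubn, Srgn, Fkbp6 and Xlr3c, at distances of 0.23, 0.33, 0.39, 0.48 and 0.85. Plagl1, an imprinted zinc finger gene on chromosome 10, was at 75.04 on KO 4, 71.2 on KO 22 and 840 on wild type. Cubn, the endocytic receptor cubilin, was at 45.2, 41.1 and 475. Srgn, the proteoglycan core protein serglycin, was at 209, 178 and 2092. All 3 were low on both knockout arrays and high on wild type. Fkbp6, a co-chaperone of male germ cells, was at 30.7, 51.5 and 519, and Xlr3c, on the X chromosome, was at 25.1, 24.5 and 208. The likeness rests on 3 arrays, and all of these differences share the same wild type array. As Aqp8 had the third lowest mean difference, the search was bound to return other large falls.

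Marker genes of other cell types moved with Aqp8. Of 14 listed markers of primitive or visceral endoderm, 11 were well above background. 10 of these were lower on both knockout arrays, beside 46.4% of the genes so measured on all 3 arrays, and 5 were at least 2-fold lower, beside 1.56% of all genes tested. Their summed level was 1782 on KO 4, 1797 on KO 22 and 3018 on wild type, while Afp, Ttr and Apoa1 were not well above background on any array. Across all 17710 genes, limma called 0.322% lower and 0.0339% higher at an adjusted p under 0.05. Of the endoderm markers it called Cubn (-3.46, limma adjusted p = 0.035). The others included Foxa2, an endoderm transcription factor, at 170, 153 and 498, and Sox17 at 47.7, 48.0 and 123. These were among the largest falls of the list, and the smallest was that of Hnf4a, at -0.29 (log2). Amn went the other way, at 917, 959 and 714, and made up a large part of the knockout sums. Of 9 trophoblast markers 8 were well above background, 7 of them higher on both knockout arrays beside 37.9% of genes, with sums of 148165, 129716 and 82367. Most of these sums came from 2 keratins, Krt18 at 86758.5, 78969.5 and 43242.7 and Krt8 at 55867, 45169 and 34538. Cdx2 was at 265, 281 and 139, while Ascl2, at 91.4, 93.5 and 127, was lower on both knockout arrays. Elf5, a trophoblast transcription factor, was not well above background on any array. Of 8 pluripotency markers 4 were higher and 4 lower on both knockout arrays. Of 6 Y-linked genes, 2 separated the samples. Eif2s3y was at 16.0, 20.4 and 894 on KO 4, KO 22 and wild type, and Ddx3y was well above background on wild type only, at 202. Zfy1 was at 24.6, 33.9 and 25.3 and did not separate them, and Kdm5d, Uty and Usp9y were not well above background on any array. The part of other cell types, or of what sets these 2 Y-linked genes apart, in the Aqp8 difference was not tested. Earlier results of these data were known when gene lists were chosen. Cubn was also found by the distance search in this same comparison. The marker shares and the Cubn call are therefore no separate support.

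Around the members, 7 lists of related genes with 79 tested genes were compared with all genes. limma called 0 of these 79 at an adjusted p under 0.05, beside 0.322% of all genes tested as lower and 0.0339% as higher. An unadjusted p under 0.05 was reached by 25 of the 79, beside 28.2% of all genes tested. With an intensity trend in the variance model limma called 21, beside 19.0% of all genes. In the fit as reported Tet1, 3.85-fold lower, was not called either, so an uncalled gene may still differ. None of the 79 was at least 2-fold apart in the same direction on both knockout arrays. Of all genes tested, 1.45% were higher and 1.56% lower by as much, so few would be looked for among 79. Over all genes tested the median mean difference was -0.03 (log2), 38.0% of genes were higher on both knockout arrays and 45.5% were lower on both.

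Of the 3 other aquaporins, 2 were measured. Aqp6, an intracellular channel of kidney intercalated cells, was at 18.8 on KO 4, 19.7 on KO 22 and 13.2 on wild type (0.55 ± 0.09, SE, limma adjusted p = 0.112). Mip, the aquaporin of lens fibres, was at 21.7, 24.5 and 26.4 (-0.19, limma adjusted p = 0.380). Aqp12 was not well above background on any array.

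The regulators and partners of aquaporins had 10 of 12 genes measured, 5 higher and 3 lower on both knockout arrays, with a median of 0.09 (log2). Adcy6, the adenylyl cyclase that raises cyclic AMP after vasopressin, was at 883, 947 and 497 (0.88 ± 0.10, limma adjusted p = 0.100). Trpv4, a calcium channel opened by cell swelling, was at 489, 495 and 279 (0.82 ± 0.09, limma adjusted p = 0.098). Both stood higher on each knockout array, and neither passed the threshold. Kcnj10, the potassium channel found beside Aqp4 in glia, was at 14.3, 10.2 and 20.6 (-0.77 ± 0.26, limma adjusted p = 0.189).

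Channels for urea and ammonia had 4 of 5 genes measured and a median of -0.03 (log2). Slc14a2, a urea transporter, was at 179, 173 and 109 (0.70 ± 0.09, limma adjusted p = 0.101). Slc14a1, Rhbg and Rhcg differed by -0.37, -0.14 and 0.08.

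In glycerol metabolism, which aquaglyceroporins supply, 5 of 14 genes were higher and 9 lower on both knockout arrays, with a median of -0.22 (log2). Gpd1l, related to glycerol-3-phosphate dehydrogenase, was at 406, 402 and 682 (-0.76 ± 0.09, limma adjusted p = 0.100). Dgat2, which makes triglyceride, was at 993, 919 and 1554 (-0.70 ± 0.10, limma adjusted p = 0.104). Plin1, a lipid droplet coat protein, differed by 0.52 and Lipe, hormone-sensitive lipase, by -0.52.

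Among cell volume and osmotic response genes, 11 of 21 were higher and 9 lower on both, with a median of 0.05 (log2). Stk39, the kinase SPAK that switches cation-chloride cotransporters, was at 1007, 1117 and 648 (0.71 ± 0.12, limma adjusted p = 0.108). Slc12a2, the cotransporter it acts on, differed by -0.37, the amino acid transporter Slc38a2 by -0.37 and the taurine transporter Slc6a6 by -0.33.

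Genes of fluid-transporting epithelium, that is the sodium pump, ion channels and tight junctions, had 13 of 17 members measured, 9 higher and 0 lower on both knockout arrays, beside 38.0% and 45.5% of all genes tested, with a median of 0.24 (log2). Ocln, the tight junction protein occludin, was at 276, 296 and 153 (0.90 ± 0.10, limma adjusted p = 0.100). Cgn, the junction plaque protein cingulin, differed by 0.45, the sodium pump subunit Atp1b1 by 0.40 and the junction adhesion molecule F11r by 0.35. The sodium channel subunits Scnn1b and Scnn1g, the exchanger Slc9a3 and the chloride channel Cftr were not well above background on any array. The trophoblast sums given above, mostly keratins Krt18 and Krt8, moved the same way as this list. The part of trophoblast-like cells in it was not tested.

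For hydrogen peroxide handling, 15 of 16 genes were measured, 6 higher and 5 lower on both, with a median of -0.02 (log2). Nox4, an oxidase that makes hydrogen peroxide, was at 80.4, 58.1 and 29.5 (1.21 ± 0.25, limma adjusted p = 0.124), and its partner Cyba differed by 0.73. The peroxide-removing peroxiredoxins Prdx4 and Prdx6 differed by -0.36 and 0.34.

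**Figure D5:**
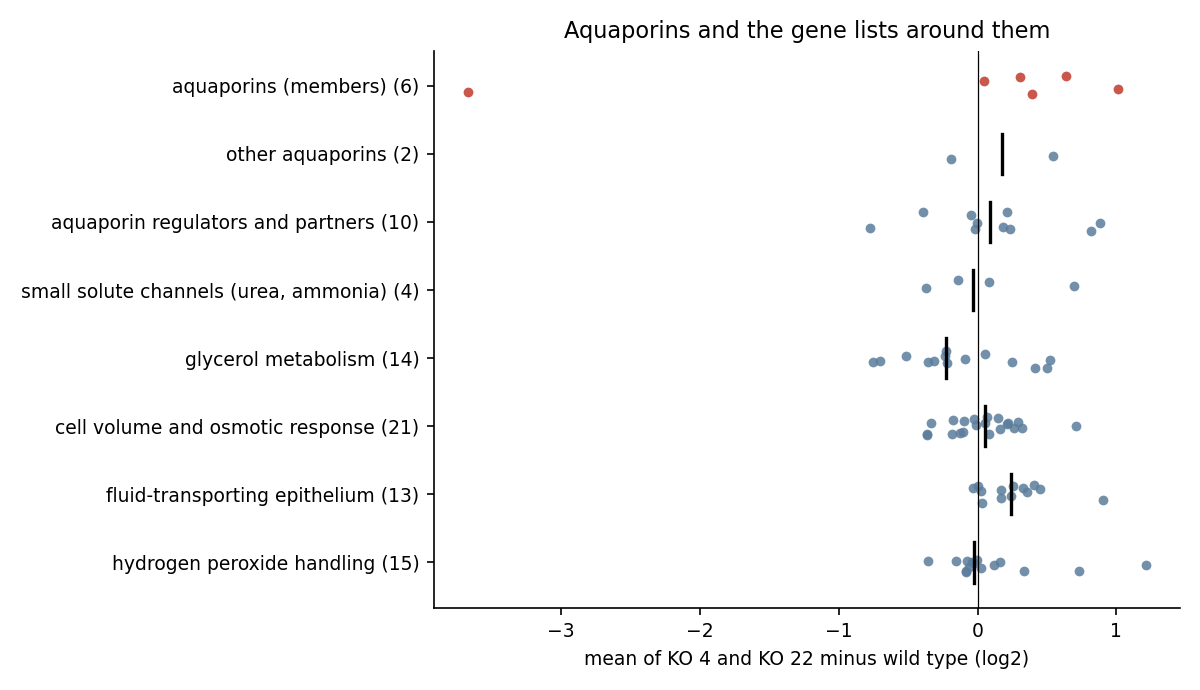
Mean of KO 4 and KO 22 minus wild type (log2, horizontal axis) for the 6 aquaporins well above background (red) and for the tested genes of 7 lists (blue), 1 point a gene, with the list's median as a black bar and the number of genes in brackets. Aqp8, at -3.67, stands far left of every other point shown, and the list medians lie between -0.22 and 0.24.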

How the data were processed

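RNA of 3 samples was hybridised to Agilent arrays, 1 per array and all on the same slide. Intensities were deposited as scanner output of Feature Extraction 10.1.1.1, per the file headers, with the array design on build mm7. The submitters' table holds log2 values as deposited, with no statement of their normalization in the labels or headers; the submitters' processing notes name limma. Its 3 columns share a median of 5.52 and correlate with log2 mean spot intensity at 0.991 to 0.993, and it was used as an alternative.

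Here the background-subtracted processed intensity was taken as log2 minus each array's 75th percentile. Control spots were left out and spots of a probe averaged. Scaled intensities multiply back by the mean of the 3 percentiles, 662.1. For 79.5% of probes the current symbol came from the RefSeq gene table, matched by accession, symbol or synonym, and the others kept the name in the files. A gene was represented by its brightest probe and tested if well above background on at least 1 array. limma 3.58.1 in R 4.3.3 compared 2 knockout arrays with 1 wild type array, with 1 residual degree of freedom (3.03 after moderation) and Benjamini-Hochberg adjustment. This script was tested on simulated data. Precision is limited by the small number of arrays.

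The members and gene lists were chosen with earlier results of these data known. Genes named are all members, Tet1, the 5 most like Aqp8, the genome neighbours of Aqp8, up to 4 genes with the largest difference from each list, and markers where they move with a member; 1 gene that this rule names is not reported here. Alternatives were other normalizations, background corrections, filters, variance models, probe summaries and leaving out a knockout array. Protein and probe sequences were not used here.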

Additional observations from a re-analysis of the deposited data

How the results depend on the processing

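Aqp8 was lower in the knockouts under all 13 alternatives, of which the filters, variance model and probe summary could not change its value. Its mean difference of -3.67 (log2) became -2.71 with normexp, -2.69 with normexp without the 8 spots dimmer than their background, -3.43 in the submitters' values and -3.03 with no background subtraction (chosen after seeing the data), and ran from -3.71 to -3.63 when a knockout array was left out. The count of members at least 2-fold lower on both knockout arrays was 1 and became 3 with normexp. Against wild type, the mean difference of Aqp1 turned to -1.59 and that of Aqp5 to -0.37 with normexp, and that of Aqp2 to -1.19 with normexp. limma called 63 genes (6 higher, 57 lower) as reported, 13843 with normexp (5211 higher, 8632 lower), 3234 with normexp without those spots, 909 when all 3 arrays had to be well above background, 0 with no filter (5969 at an unadjusted p under 0.05), 3373 with an intensity trend, 969 in the submitters' values and 2275 with no background subtraction. Genes at least 2-fold apart on both knockout arrays numbered 533 as reported, 5760 with normexp, 109 with normexp without those spots, 283 when all 3 arrays had to be well above background, 906 with no filter, 289 in the submitters' values and 150 with no background subtraction. With KO 4 left out 811 genes were 2-fold apart, and with KO 22 left out 867. List genes called numbered 0 as reported, 66 with normexp, 19 with normexp without those spots, 6 when all 3 arrays had to be well above background, 21 with an intensity trend, 7 in the submitters' values and 11 with no background subtraction. The normexp fit as planned moved the median of all genes to -0.20. With 3 arrays, 1 of them wild type, calls depend on the variance model, and values of dim probes on the background correction. Apart from these, the cause was not tested. No paired analysis was possible because the groups share no replicate number.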
